A study of Homo sapiens with 6 samples.

Results

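The 9 genes described here encode the translesion and theta DNA polymerases and 2 of their partners: POLH, POLI, POLK and REV1 of the Y family, REV3L and MAD2L2 of polymerase zeta, POLQ and POLN of the A family, and the ubiquitin ligase RAD18. Their peaks were all peaks of the deposited list whose summit lay in the Gencode body of 1 of these genes or up to 4000 bp past its 3′ end. Of 200023 peaks in all, 174 met this rule, and 129 of them had −log10 q of at least 5. The other 45 peaks had 4 to 18 reads at their summits. The cutoff of at least 5 is used below unless stated. The study set it for its sample-specific peaks, with further limits on reads and on the ratio between conditions that were not applied here.

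Poly(A) 3′-seq, which reads transcripts from the start of their poly(A) tail, was performed on IMR-32 cells, an established human neuroblastoma line with amplified MYCN. There were 6 libraries, 2 each from cells in DMSO (the solvent, for a time not given per library), from cells treated with 400 nM THZ531 during 2 h and from cells treated with it during 6 h. The compound THZ531 binds covalently to the transcriptional kinases CDK12 and CDK13 and inactivates them, and the study asked with these libraries where transcripts ended when both kinases were inhibited. Peaks were called once on pooled reads, assumed here to be those of the 6 libraries, so peaks have neither a strand nor values per library, the depth of each library is unknown, and DMSO and THZ531 could not be compared.

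Translesion polymerases copy DNA past damaged bases that stop the replicative polymerases, with less accuracy on intact DNA. They are recruited to stalled forks by PCNA, the sliding clamp, once RAD18 and its partner have attached ubiquitin to it, and one polymerase may insert a base opposite the lesion while polymerase zeta extends from it. Polymerase theta joins broken DNA ends through short stretches of homology, a pathway used when homologous recombination is impaired. In all of these genes a cleavage and polyadenylation site inside an intron gives a transcript that lacks the exons downstream of it.

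As each read starts at the junction of transcript and poly(A) tail and was extended into the transcript, the cleavage site lies at the downstream edge of a peak with respect to the gene, the 3′ edge below. For 7 of the 9 genes, the sequence at the tallest intronic peak with a polyadenylation signal (PAS) hexamer is shown, so that what precedes and follows each such edge can be seen. The peak shown for RAD18 lies past the canonical end of that gene. Each runs 5′ to 3′ on the gene's strand, from GRCh38, with 100 bases that end at the 3′ edge and 40 bases after it. The capitals mark, in the 100 bases up to the edge, any of the 12 hexamers searched, which may overlap: AATAAA itself, the 3 forms of NATAAA, the 3 forms of ANTAAA and the 3 forms of AATANA that differ from it, as well as AATGAA on the one hand and AAGAAA on the other.
POLH intronic peak, chr6:43579539-43579678, plus strand: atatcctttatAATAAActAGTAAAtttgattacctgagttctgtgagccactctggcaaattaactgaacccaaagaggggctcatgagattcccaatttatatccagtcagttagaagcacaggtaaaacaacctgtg
POLK intronic peak, chr5:75525412-75525551, plus strand: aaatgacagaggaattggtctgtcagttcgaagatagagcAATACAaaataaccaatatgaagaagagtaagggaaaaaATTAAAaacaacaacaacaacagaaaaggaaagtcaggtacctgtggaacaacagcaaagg
REV1 intronic peak, chr2:99412407-99412546, minus strand: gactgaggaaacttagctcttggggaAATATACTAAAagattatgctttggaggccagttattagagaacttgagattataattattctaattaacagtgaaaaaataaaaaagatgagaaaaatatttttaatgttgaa
REV3L intronic peak, chr6:111480813-111480952, minus strand: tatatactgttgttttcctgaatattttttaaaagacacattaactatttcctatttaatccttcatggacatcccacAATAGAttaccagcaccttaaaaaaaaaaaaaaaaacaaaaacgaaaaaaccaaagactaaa
POLQ intronic peak, chr3:121543241-121543380, minus strand: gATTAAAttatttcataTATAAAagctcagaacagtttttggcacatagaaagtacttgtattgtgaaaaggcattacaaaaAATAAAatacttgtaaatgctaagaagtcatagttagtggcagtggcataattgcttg
POLN intronic peak, chr4:2226692-2226831, minus strand: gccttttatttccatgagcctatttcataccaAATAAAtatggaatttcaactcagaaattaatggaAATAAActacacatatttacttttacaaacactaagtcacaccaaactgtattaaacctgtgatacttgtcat
RAD18 intronic peak, chr3:8865274-8865413, minus strand: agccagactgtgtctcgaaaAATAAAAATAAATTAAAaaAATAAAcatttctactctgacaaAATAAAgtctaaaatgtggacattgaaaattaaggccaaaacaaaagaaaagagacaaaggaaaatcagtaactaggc

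The tallest transcript-end peak with a hexamer is shown for the 8 genes that had one, as 30 bases around the hexamer nearest the 3′ edge. The capitals mark this hexamer alone, which was AATAAA in 4 of the 8 genes, POLI, POLK, REV1 and MAD2L2.
POLH transcript end, chr6:43620526-43620555, plus strand: tatgtgtatttaAATATAtatacatatgta
POLI transcript end, chr18:54294690-54294719, plus strand: atattacttttcAATAAAaagaatatcatg
POLK transcript end, chr5:75599781-75599810, plus strand: ttaatcatttgaAATAAAatttaaagcttt
REV1 transcript end, chr2:99400480-99400509, minus strand: ccataactttaaAATAAAaatagtttaaaa
REV3L transcript end, chr6:111298936-111298965, minus strand: gagttttaatgaAGTAAAttatttaacata
MAD2L2 transcript end, chr1:11674490-11674519, minus strand: gtgagttgtttcAATAAAggggccccaagg
POLQ transcript end, chr3:121431430-121431459, minus strand: ctgttgaaataaAATGAAtttatgagaaac
RAD18 transcript end, chr3:8881263-8881292, minus strand: agattttctattTATAAAtgcccaaggaaa

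In the pooled list, 8 of the 9 genes had at least 1 peak at an annotated transcript end, meaning a summit from 200 bp before to 600 bp after it, and POLN had none. Over all protein-coding genes, 64.0% had such a peak. All 9 genes had intronic peaks, 89 in all and from 2 in POLI to 24 in REV3L, beside 79.7% of detected genes with an intron, where detected means that a transcript end had a peak. POLN is not among the genes detected in this sense. Of the 129 peaks, 89 were intronic (69.0%, 95% Wilson interval 60.6 to 76.3), 17 lay at a transcript end (13.2%, 8.39 to 20.1), 18 in another exon and 5 past the gene. In other protein-coding genes 64.0% of peaks were intronic and 20.2% lay at a transcript end, so the interval of the intronic share includes the value of the other genes, and that of the transcript-end share stops just short of it. The intervals here and below cover counting error only, no value has a replicate error, and peaks of 1 gene are not replicates.

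Height is given as reads at the summit, the pileup of extended reads that the peak caller used, which was recovered from the deposited fold enrichment and p-value. The study's methods name no setting for duplicates, and MACS2 by default keeps 1 read per position and strand. With reads extended to 100 bp the pileup then cannot pass 200, and of all peaks in the list 0 passed this value. These heights therefore appear to count distinct read starts rather than all reads, so that abundant and sharply placed ends are understated most, and intervals that take them as Poisson counts are approximate. The 17 transcript-end peaks had 11 to 41 reads with a median of 22, and the 89 intronic peaks had 7 to 43 reads with a median of 14. In other genes the medians were 19 and 12 reads. In the 8 genes with both kinds, the exact 95% Poisson intervals of the tallest transcript-end peak and the tallest intronic peak overlapped, which on this capped measure does not show that the 2 were of like abundance. For POLH the overlap rests on an end peak shared with GTPBP2, a gene on the opposite strand. When peaks at another gene's transcript end were left out, its tallest transcript-end peak had 20 reads (12.2 to 30.9) against 43 (31.1 to 57.9) in the intron, without overlap, whereas the intervals overlapped in 6 of the 7 genes that still had both. That 20-read peak of POLH still lay within GTPBP2, had no hexamer and had its edge 625 bp past an alternative annotated end. Without any peak covered by another gene, POLH had 0 transcript-end peaks. With all peaks kept, POLH and POLN were the 2 genes whose tallest peak of the gene body and ends was intronic. POLN had no transcript-end or exonic peak, so its tallest could only be intronic. Among the 8 genes with a transcript-end peak this left POLH alone, beside 23.7% of detected genes with an intron.

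**Figure D1:**
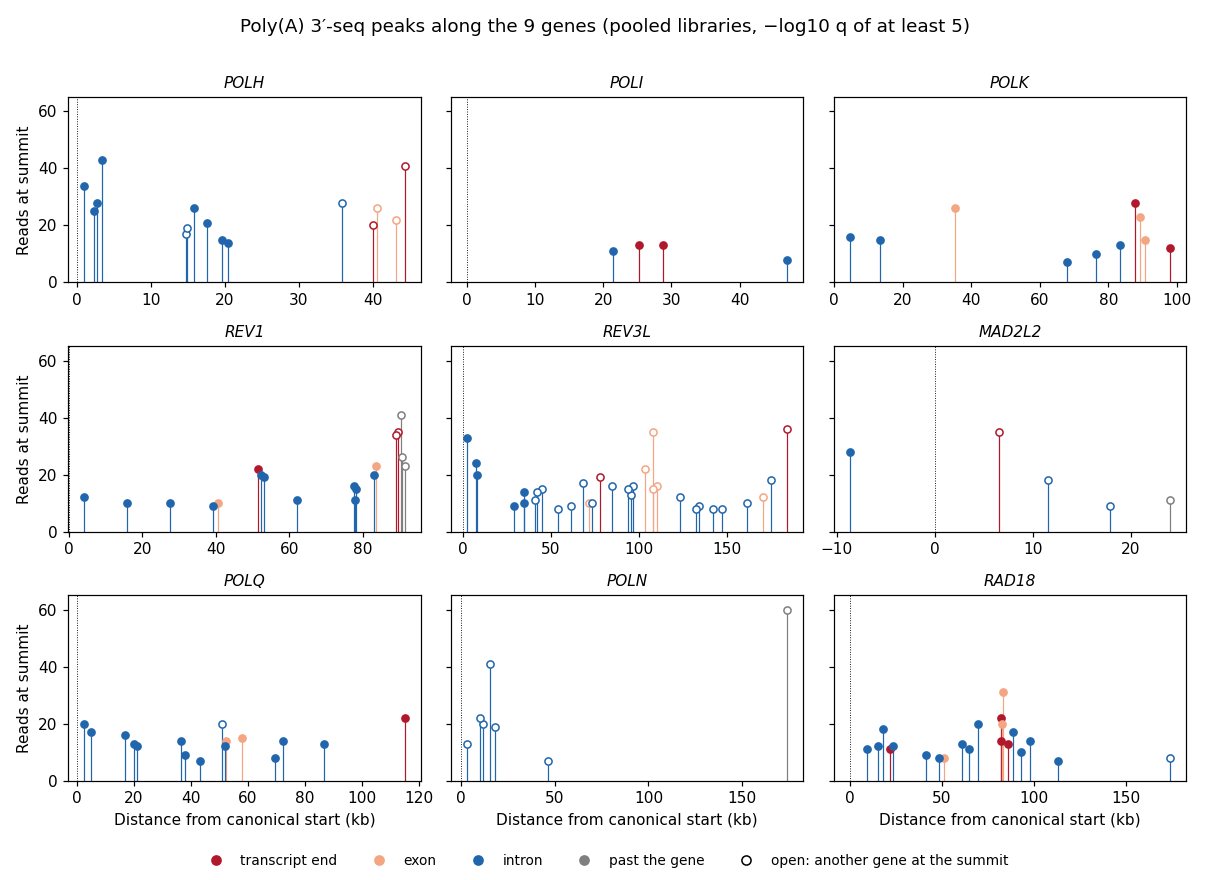
Reads at the summit of each peak with −log10 q of at least 5 against its distance from the start of the canonical transcript in kb, 1 panel per gene, with colours for the class of the peak. Open circles are peaks where another annotated gene covers the summit, which holds for 26 of 32 peaks of REV3L and 7 of 7 of POLN but for none of POLI and POLK.

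Where another gene lay at the summit, a list without strand cannot say which gene the reads came from. This held for 51 of the 129 peaks (39.5%, 31.5 to 48.2), and for 27.9% of all peaks assigned to protein-coding genes. The other gene was on the opposite strand at 45 of the 51. The part of these genes in the heights below was not tested, and each is named with the member it overlaps.

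POLH encodes polymerase eta, which copies past ultraviolet-induced pyrimidine dimers and is lost in the variant form of xeroderma pigmentosum. The gene (ENSG00000170734.12, chr6:43576185-43620523, plus strand) is 44.3 kb long and had 15 peaks, 11 of them intronic. Detected genes of similar length, within 25% of its own, had a median of 4 intronic peaks. POLH stood at the 98.5th percentile of these 1991 genes. A run of 4 peaks lay in intron 1, before the first codon. The peak nearest the start, at chr6:43577112-43577322, was 0.989 kb from it and had 34 reads, with CATAAA starting 16 bp before the 3′ edge and at most 6 A in any 25 bases after it. The next peaks, at 2.34 and 2.77 kb, had 25 and 28 reads, with AGTAAA starting 16 bp and CATAAA starting 24 bp before the 3′ edge.

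The tallest peak of POLH was the last of this run, at chr6:43579463-43579638, with 43 reads (31.1 to 57.9). It held AATAAA followed by AGTAAA, as shown above, and the nearer of these began 81 bp before the 3′ edge of this 176-bp-wide peak. A further 6 peaks in intron 4, after 163 of 713 codons, had 14 to 26 reads, and 2 of them lay within the antisense lncRNA POLH-AS1. Of these, the peak with 21 reads had 22 A in 25 bases after its edge and no hexamer, the criterion by which the study removed likely priming on genomic A. The canonical end of POLH carried 41 reads (29.4 to 55.6) at chr6:43620422-43620605, with its 3′ edge 82 bp past the annotated end. That peak also lay at an annotated end of GTPBP2, which runs towards POLH on the opposite strand and covers all 5 POLH peaks from intron 10 onwards.

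POLI encodes polymerase iota, a Y-family enzyme of very low fidelity. It had the fewest peaks in introns (ENSG00000101751.11, chr18:54269517-54321266, plus strand), with 2 in 51.8 kb where genes of similar length had a median of 5. Both of its transcript-end peaks, at chr18:54294623-54294728 and at the canonical end chr18:54298129-54298238, had 13 reads (6.92 to 22.2). Each had a 3′ edge 4 bp past an annotated end and AATAAA, 27 and 23 bp before that edge. The taller intronic peak, which was also the one nearest the start, had 11 reads at chr18:54290871-54290972 in intron 8, after 399 of 740 codons. The other, with 8 reads, lay past the canonical end in an intron of a longer transcript.

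POLK encodes polymerase kappa, which copies past bulky adducts of guanine. In this gene (ENSG00000122008.16, chr5:75511845-75609991, plus strand, 98.1 kb), 5 intronic peaks stood beside a median of 8 in genes of similar length. The tallest intronic peak and the one nearest the start were the same, 16 reads at chr5:75516347-75516673, 4.53 kb from the start in intron 1, with no hexamer and at most 15 A in 25 bases. The second peak of intron 1, at 13.5 kb, had 15 reads and ATTAAA 21 bp before its edge. A peak of 26 reads (17.0 to 38.1) lay in exon 2 at chr5:75546992-75547120, after 7 of 870 codons, with AATAAA starting 29 bp before the edge.

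At the other end of POLK, 4 peaks followed each other along the last exon with 28, 23, 15 and 12 reads. The tallest, at chr5:75599640-75599818, lay 16 bp short of an alternative annotated end, and the last, at chr5:75609884-75609988, lay 3 bp short of the canonical end. The canonical end thus had 12 reads (6.2 to 21.0) and the alternative end 28 (18.6 to 40.5), and these intervals overlap. All 4 had a hexamer 10 to 27 bp before the edge.

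REV1 inserts cytosine opposite damaged guanine and binds the other Y-family polymerases and polymerase zeta. The gene (ENSG00000135945.10, chr2:99400475-99490035, minus strand, 89.6 kb) had 11 intronic peaks of 9 to 20 reads beside a median of 8 in genes of similar length. Both of its tallest intronic peaks had 20 reads, at chr2:99407098-99407202 in intron 15 and chr2:99437520-99437855 in intron 6, and neither had a hexamer. At most 19 and 10 of 25 bases after their edges were A. The peak nearest the start, at chr2:99485715-99485829, had 12 reads, 4.27 kb into intron 1, with AATAAA 11 bp before the edge and at most 6 A in 25 bases. Just before the second of the tallest pair, an annotated alternative end in exon 6 carried 22 reads at chr2:99438571-99438754. Its edge lay 3 bp past that end, with ATTAAA 20 bp before the edge, and 383 of 1251 codons came before it.

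The canonical end of REV1 had 35 reads (24.4 to 48.7) at chr2:99400444-99400566, and an alternative end had 34 reads at chr2:99400919-99401064. Both had AATAAA, 54 and 49 bp before an edge that lay 31 bp past the annotated end. Both also lay within EIF5B, which encodes a translation initiation factor and meets REV1 tail to tail on the opposite strand. The 3 peaks past REV1, with 41, 26 and 23 reads, lay within EIF5B too. The canonical-end peak of 35 reads and the peaks of 41 and 26 reads also lay at annotated ends of EIF5B.

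REV3L encodes the catalytic subunit of polymerase zeta, the extender of translesion synthesis. It is the gene with the most peaks (ENSG00000009413.17, chr6:111299028-111483715, minus strand, 185 kb), 32 in all and 24 in introns, where genes of similar length had a median of 14, at the 85.9th percentile. The annotation of MFSD4B, on the opposite strand, spans REV3L from its end into intron 1, and 26 of the 32 peaks lie within it. In this span, the lncRNAs ENSG00000272356, on the opposite strand, and REV3L-IT1, on the same strand, each lie at 1 peak of 12 reads. Without peaks covered by another gene, in REV3L and in all other genes alike, 6 intronic peaks remained and the percentile was 20.6. These 6 lay in the upstream stretch of intron 1. The tallest of them, which was also the tallest intronic peak and the one nearest the start, had 33 reads (22.7 to 46.3) at chr6:111480853-111481045, 2.27 kb from the start and after 46 of 3130 codons. It had AATAGA 22 bp before the edge and 22 A in 25 bases after it, the run of A that the sequence above shows. The peaks at 7.28 and 8.13 kb had 24 and 20 reads, and the first of these had AATAAA 32 bp before its edge.

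Of the 24 intronic peaks of REV3L, 11 lay in the 66.3-kb first intron (45.8%, 27.9 to 64.9), which holds 38.2% of its intronic bases. The canonical end had 36 reads (25.2 to 49.8) at chr6:111298883-111299380, with 22 A in 25 bases after its edge and AGTAAA 71 bp before it. Exon 13, which holds a large part of the coding sequence, had 3 peaks, the tallest with 35 reads at chr6:111374720-111374881, after 1183 of 3130 codons.

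MAD2L2 encodes REV7, which joins REV3L to REV1 and is also part of shieldin, a complex that limits the resection of broken ends. This gene (ENSG00000116670.16, chr1:11658918-11691811, minus strand, 32.9 kb, canonical protein of 211 codons) had 5 peaks. The canonical end had 35 reads (24.4 to 48.7) at chr1:11674473-11674624, its edge 7 bp past the annotated end and AATAAA 35 bp before it, and the peak also lay at an annotated end of FBXO6 on the opposite strand. None of its 3 intronic peaks lay in a canonical intron. The tallest, which was also the most upstream, had 28 reads (18.6 to 40.5) at chr1:11689738-11690265, 8.67 kb upstream of the canonical start, in an intron of a transcript that begins further upstream. The other 2, with 18 and 9 reads, lay past the canonical end within FBXO6 and FBXO44, and the 9-read peak lay at an annotated end of FBXO44.

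POLQ encodes polymerase theta, which joins ends by microhomology. Its 114558 bp (ENSG00000051341.15, chr3:121431431-121545988, minus strand) held 16 peaks, 13 of them intronic beside a median of 10 in genes of similar length. A single transcript-end peak, at chr3:121431419-121431877, had 22 reads (13.8 to 33.3), with its edge 12 bp past the canonical end and AATGAA 29 bp before the edge. The intronic peak nearest the start, at chr3:121543281-121543402, had 20 reads (12.2 to 30.9), 2.65 kb from the start in intron 2 and after 114 of 2590 codons. It had AATAAA 18 bp before the edge and at most 8 A in 25 bases after it. Another peak of 20 reads lay in intron 14 at chr3:121494852-121494974, within RPL7AP11, a processed pseudogene of a ribosomal protein on the opposite strand, and had no hexamer and at most 8 A in 25 bases. Mapping allowed a read up to 20 placements, so reads that also match other copies of that ribosomal protein gene could not be told apart here. The other 11 intronic peaks had 7 to 17 reads and were spread from intron 3 to intron 25.

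POLN encodes polymerase nu, an A-family enzyme of low fidelity. In its 170 kb (ENSG00000130997.16, chr4:2071918-2242121, minus strand), no annotated end had a peak with −log10 q of at least 5. Without the cutoff, 2 peaks of 6 and 5 reads had edges 177 and 543 bp past the same alternative end. The canonical end had none. All 7 of its peaks lay where another gene is annotated. The tallest intronic peak had 41 reads (29.4 to 55.6) at chr4:2226732-2226889 in intron 3, after 44 of 900 codons, with AATAAA 33 bp before its edge and at most 11 A in 25 bases after it. It lay 732 bp past the end of HAUS3, a subunit gene of the augmin complex of the spindle, which overlaps the first part of POLN on the same strand, and within ENSG00000290263, a coding gene annotated on the same strand. The peak nearest the start, 13 reads at chr4:2238784-2239064 with AATAAA 39 bp before the edge and at most 13 A in 25 bases after it, and 2 more of 22 and 20 reads lay within HAUS3 itself. Which of the same-strand transcripts these reads came from cannot be told apart here. The tallest peak of all 129, with 60 reads at chr4:2068042-2068682, lay 3726 bp past POLN at its summit, just inside the limit of the rule, and within NAT8L on the opposite strand. The nearest peak outside the limit there, at 5540 bp, had 30 reads, and the one closest to the limit for any of the 9 genes, 4700 bp past POLH, had 22 reads.

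RAD18 encodes the ubiquitin ligase that marks PCNA. The gene (ENSG00000070950.10, chr3:8775402-8963773, minus strand, 188 kb) is annotated far past its canonical end, and 5 of its 14 intronic peaks, with 7 to 17 reads, lay in that distal stretch. Of these, the peak at chr3:8789173-8789303, with 8 reads, lay within CAV3 on the opposite strand. Genes of similar length had a median of 15. Its end carried a cluster of peaks along the last exon. From upstream to downstream they had 22, 14, 20, 31 and 13 reads, and the tallest, at chr3:8879874-8880015, was 1390 bp from the nearest annotated end and had ATTAAA 24 bp before its edge. The tallest at an annotated end had 22 reads (13.8 to 33.3) at chr3:8881208-8881350, 56 bp past it, and the canonical end had 13 (6.92 to 22.2) at chr3:8877076-8877295, with AATAAA 18 bp before the edge. An alternative end in exon 5 had 11 reads and no hexamer.

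Inside RAD18, the tallest intronic peak had 20 reads at chr3:8893704-8893815 in intron 11, after 440 of 495 codons, with no hexamer and at most 18 A in 25 bases. The intronic peak nearest the start had 11 reads at chr3:8953833-8953972 in intron 2, after 44 codons, with AATAAA 62 bp before the edge and at most 16 A in 25 bases. This peak was the first of the gene, 9.57 kb from its start, whereas the first peaks of POLH and REV3L lay at 0.989 and 2.27 kb.

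**Figure D2:**
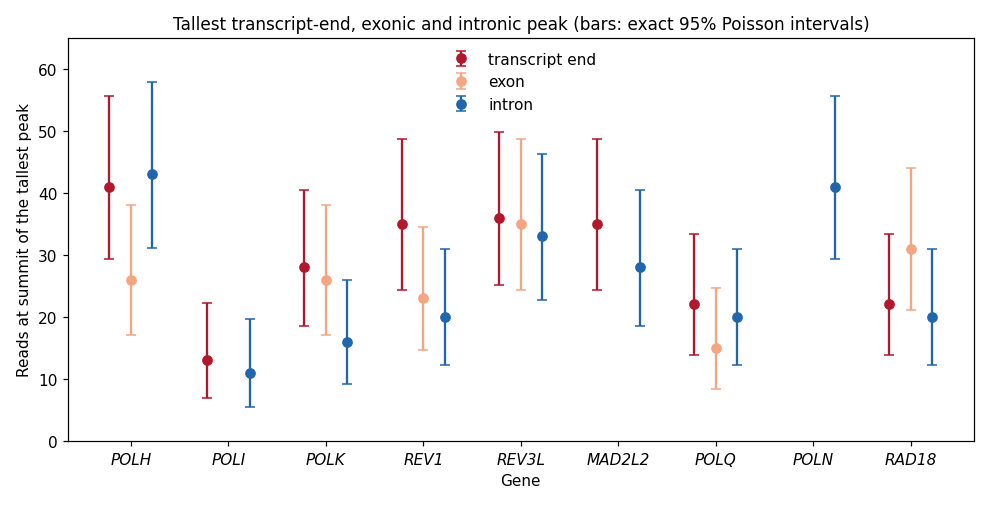
Reads at the summit of the tallest transcript-end, exonic and intronic peak of each gene, with exact 95% Poisson intervals as bars. Intervals of the transcript-end and intronic peaks overlap in the 8 genes that had both, from 13 and 11 reads in POLI to 41 and 43 in POLH. In POLH they no longer do once the end peak shared with GTPBP2 is left out (20 against 43 reads), but the 20-read peak lies within GTPBP2 too. POLN has an intronic peak alone.

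Along the coding sequence, 80 of the 89 intronic peaks lay in introns of the canonical transcript, 8 past its end and 1 upstream of its start. Of the 80, 11 came before the first codon, in POLH, POLK, REV1 and POLN. Another 47 came after part of the coding sequence but before 50% of it, and 22 came after 50% or more. REV3L and POLQ had 17 and 10 peaks in the upstream part and 7 and 3 in the downstream part. RAD18 was split into 4 and 5.

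**Figure D3:**
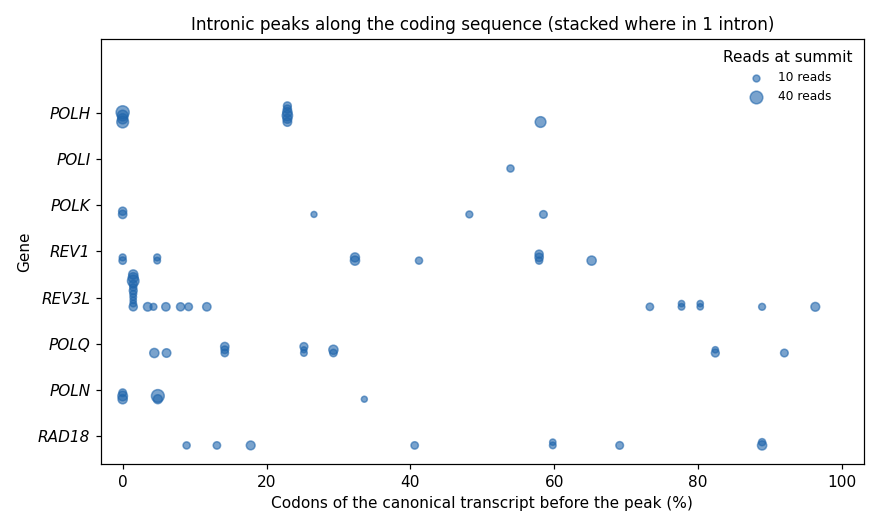
Each point is an intronic peak placed by the share of the codons of the canonical transcript that come before it, in percent, with 1 row per gene and the area of the point rising with the reads at its summit. Points of 1 intron are stacked, and MAD2L2 is left out because it had no peak in a canonical intron.

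First introns held 19 of the 80 peaks in canonical introns (23.8%, 15.8 to 34.1). They would hold 21.2% if each gene's peaks were spread evenly over its intronic bases. In other detected genes these shares were 31.5% and 26.1%. The first-intron peaks had a median of 15 reads and the later ones a median of 13, beside 14 and 11 in other detected genes. By gene, 4 of 11 peaks of POLH lay in a first intron that holds 16.3% of its intronic bases, whereas POLQ, POLN and RAD18 had none in first introns of 0.808, 0.26 and 4.33 kb.

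**Figure D4:**
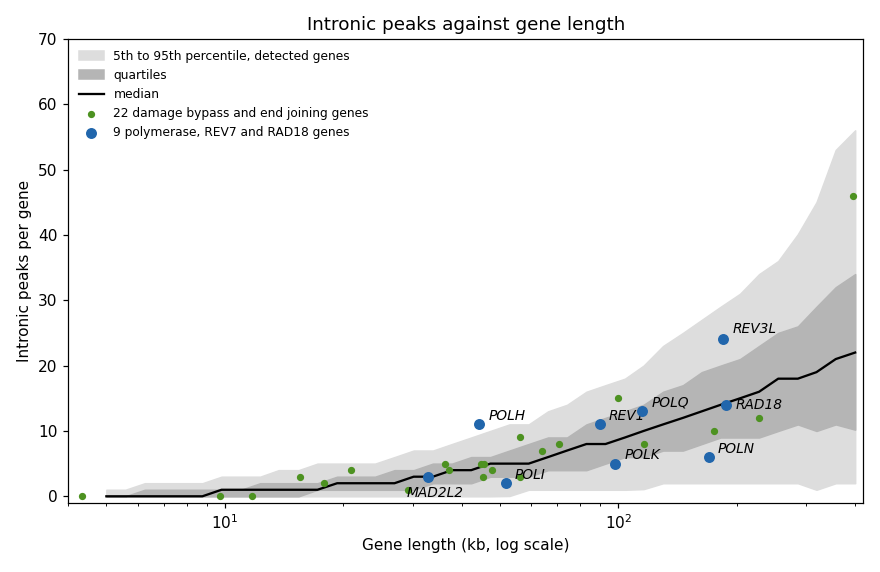
Number of intronic peaks against gene length in kb (log scale) for the 9 genes in blue and 22 related genes in green, over the median, quartiles and 5th to 95th percentiles of detected protein-coding genes within 25% of each length. POLH, with 11 peaks, lies above the 95th percentile of its length, and POLI and POLN, with 2 and 6, lie below the lower quartiles of 3 and 8.

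Against genes of similar length, 4 of the 9 had more intronic peaks than the median (POLH, REV1, REV3L and POLQ), 4 had fewer (POLI, POLK, POLN and RAD18) and MAD2L2 had the median number of 3. The percentiles ran from 16.5 in POLI to 98.5 in POLH, with a median of 48.8. Without peaks covered by another gene, in these and all other genes, 3 had more than the median (POLH, REV1 and POLQ), 5 had fewer and RAD18 had the median number. POLH then had 8 intronic peaks and stood at the 93.0th percentile, while REV3L moved from 85.9 to 20.6, MAD2L2 from 48.8 to 21.7, and POLN from 17.8 to 1.5 with 0 peaks. As the genes were chosen with earlier results known, these percentiles are descriptions.

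The genes also differ in the sequence content that the study set beside early ends. The ratio of U1 motifs (GGTGAG as well as GGTAAG or else GTGAGT, overlapping matches counted, on the gene's strand) to AATAAA ran from 0.388 in REV3L and 0.444 in POLK to 1.26 in MAD2L2. In between lay POLQ with 0.576, POLI with 0.627, REV1 with 0.667, POLH with 0.721, RAD18 with 1.13 and POLN with 1.23. Among detected genes, REV3L stood at the 5.04th and POLK at the 8.81st percentile of this ratio. By intronic peaks, these 2 genes stood at the 85.9th and 23.3rd percentile among genes of their length. Without peaks covered by another gene, in all genes alike, REV3L stood at 20.6 and POLK at 28.9. GC content ran from 36.4% in POLI to 54.2% in MAD2L2.

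Of the 64 intronic peaks with no gene on the opposite strand, 40 had at least 1 of the 12 hexamers in the 100 bp that end at the 3′ edge (62.5%, 50.3 to 73.3). Over all such intronic peaks of protein-coding genes, 57.7% did. On the opposite strand of the same 64 places, 31 had a hexamer (48.4%, 36.6 to 60.4), beside 36.1% in other genes. The intervals of both strands overlap, but as the strands share their places this overlap does not compare them. The most frequent hexamer nearest the edge was AATAAA, at 13 peaks, followed by ATTAAA at 5. At transcript ends, 9 of 10 such peaks had a hexamer (90.0%, 59.6 to 98.2), and 80.9% did in other genes.

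Hexamers were also counted only where they started 10 to 35 bp before the 3′ edge, a range chosen after the data were seen. In introns, 28 of 64 peaks had one on the gene's strand (43.8%, 32.3 to 55.9) and 14 on the opposite strand (21.9%, 13.5 to 33.4). These intervals, again of the same places, meet at their ends, and in other genes the shares were 39.2% and 14.5%. At transcript ends, 7 of 10 had one on the gene's strand (95% interval 39.7% to 89.2%) and 0 of 10 on the opposite strand, with an upper Wilson bound of 27.8%.

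**Figure D5:**
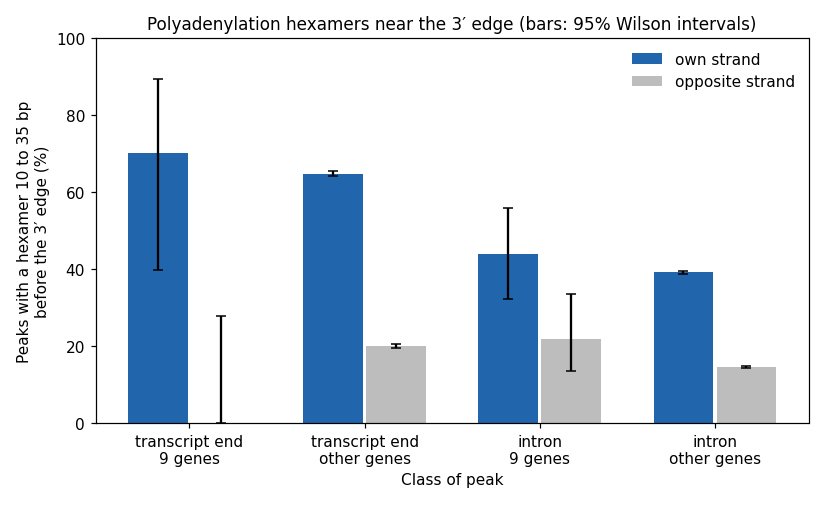
Share of peaks without a gene on the opposite strand that had a hexamer starting 10 to 35 bp before the 3′ edge, in percent, on the gene's strand in blue and on the opposite strand in grey, with 95% Wilson intervals. For introns of the 9 genes the shares are 43.8% and 21.9%, and their intervals include the 39.2% and 14.5% of other genes.

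Stretches of genomic A after the edge, on which the primer can anneal without a tail, were looked for at the same 64 intronic peaks. At least 22 A in 25 bases were found at 3 of them (4.69%, 1.61 to 12.9), beside 5.79% of all such peaks. These were the 33-read peak of REV3L, the 21-read peak of POLH and a 7-read peak of POLK. At the looser limit of 18 A, there were 14 (21.9%, 13.5 to 33.4), beside 28.3%. On the opposite strand 2 of 64 met the looser limit (3.12%), beside 2.2% in other genes. Of 10 transcript-end peaks, 0 met either limit, with an upper Wilson bound of 27.8%. In other genes 1.4% of such peaks met the limit of 22 A and 7.16% that of 18 A, so 10 peaks cannot show a difference.

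The genes around this pathway were taken from a list of 22: those that put ubiquitin on PCNA or remove it and act at stalled forks, the subunits POLD2 and POLD3 that polymerase zeta shares with polymerase delta, and genes of end joining with polymerase theta. All 22 had a transcript-end peak and 19 had an intronic peak, 154 in all. Of these genes, 12 had more intronic peaks than the median of genes of similar length, 9 had fewer and 1 had the median number, and the median percentile was 58.8, beside 48.8 for the 9 genes. ZRANB3, a translocase that remodels stalled forks, had the most, 46 in 394 kb where the median was 22. SHPRH, a ubiquitin ligase of PCNA, had 15 beside a median of 9, and RBBP8, which encodes the resection factor CtIP, had 12 beside a median of 16. In 3 of the 22 the tallest peak was intronic, beside 23.7% of detected genes with an intron. These 3 were ZRANB3 with 39 reads against 30 at its end, POLD3 with 30 against 15 and XRCC1 with 27 against 18.

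The labelled cell type was checked once against its markers. All 10 neuroblastoma markers had a transcript-end peak, from 19 reads in DBH to 123 in PHOX2A. Of 8 markers of other cell types, PTPRC, CD3E, ALB, KRT5 and PECAM1 had none, and EPCAM, MYOD1 and COL1A1 had 7, 10 and 15 reads.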

How the data were processed

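Trimmed reads were aligned by the authors to GRCh38 (STAR 2.5.1b, at most 20 placements a read). They then ran MACS2 2.1.1 a single time on a merged file of the samples, with reads extended to 100 bp and no control library. The deposited list gives per peak the fold enrichment (a ratio of pileup to local background, each plus 1), a −log10 p-value, a −log10 q-value, a score (not used) and the summit offset. Reads at the summit (by the peak caller's default, 1 per position and strand) were solved from the deposited fold and −log10 p, with a largest misfit of 0.000172, and the solver was tested on simulated data.

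Summits were assigned to genes of Gencode 44 (the study used release 27) and classed in the order transcript end, exon, intron, past the gene. All coordinates are 1-based. No peak lay past a chromosome end. Shares have 95% Wilson intervals and heights exact 95% Poisson intervals. Nothing was tested. For each gene, the tallest transcript-end peak, the tallest intronic peak and the intronic peak nearest the start were described, with genes overlapping them. Of the 22 listed genes, the 3 with the most intronic peaks were named, and other peaks and genes named were chosen after their values were seen. Printed intronic windows were widened from 60 to 100 bases before the edge, after the data were seen, to show the whole searched window, and those of 2 genes are not reported here. The members and lists were chosen with earlier results of these data known. Python 3.11.15, pandas 2.3.3, scipy 1.17.1 and pysam 0.24.0 were used.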

Additional observations from a re-analysis of the deposited data

How the results depend on the processing

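No paired analysis was possible because single libraries have no values here and no result comes from a test. Of 40 alternatives, 27 left the value within its counting interval or within 1.5 times the count, and 13 did not. A stricter cutoff, −log10 q of at least 20, left 11 peaks, of which 2 were intronic (18.2%, 5.14 to 47.7) and 4 lay at a transcript end (36.4%, 15.2 to 64.6). Hexamers were found at 5 of 5 peaks on 1 strand (100%, 56.6 to 100) and A stretches at 0 of 5 (upper bound 43.4%). The median was 0 intronic peaks per gene, and 4 genes had a transcript-end peak. With the canonical transcript alone, the transcript-end share was 6.2%, because alternative ends no longer count as ends. Leaving out peaks covered by another gene left 78 peaks and a median of 6 intronic peaks per gene. No peak of POLN remained, and the genes whose tallest peak was intronic became POLH, REV3L and MAD2L2. In POLH, REV3L and MAD2L2 the filter left intronic peaks alone, so their tallest peak could only be intronic. AATAAA and ATTAAA alone were found at 45.2% of the peaks on 1 strand, a window ending at the summit gave 38.1%, and at least 18 A in 25 bases gave 16.7%, beside 66.7% and 3.57% as first counted. Leaving out peaks at another gene's end, chosen after seeing the data, kept 7 genes with a transcript-end peak, as the end peak of MAD2L2 was removed. Per gene, POLH stayed between the 89.1st and 98.5th percentile of genes of similar length under each of 4 settings, also chosen after seeing the data, while REV3L ranged from 20.6 to 85.9 and POLN from 1.5 to 71.8. The 89.1 of POLH and the 71.8 of POLN came from the stricter cutoff, where each had 1 intronic peak beside a median of 0.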
